A study of Mus musculus with 6 samples.

Results

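The 50 genes described here are a panel of the cell cycle and of mitosis, listed by name by a rule that uses no measured value, though with earlier results of these data known, and all 50 were found among the 54309 genes of the deposited tables, where they comprised 287 of 140789 transcripts. They fall into 5 cyclins and kinases of G1 entry, 15 genes of the G1/S transition and DNA replication, 25 genes of G2/M and mitosis, and 5 inhibitors of cyclin-dependent kinases (CDKs) with the pocket protein gene Rb1. Left sciatic nerves of female and male C57BL/6 mice, aged 6 to 8 weeks, were taken 24 h after a sham operation under isoflurane, in which the nerve was laid bare at mid-thigh, left uncut, and the wound closed. Each of the 6 samples was a pool of nerve from 2 mice, with 3 pools per sex, and RNA-seq of polyadenylated RNA gave 55949876 to 78473057 assigned read pairs per pool. The samples carry no genetic modification or drug treatment in their labels, no unoperated nerve was among them, and axotomized nerves were not analysed here. Sex was therefore the sole contrast. In such bulk samples, fewer cells of a type and less RNA per cell cannot be told apart.

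Cells leave G1 when D-type cyclins, bound to CDK4 or CDK6, phosphorylate the retinoblastoma protein and release E2F transcription factors, which switch on the genes for nucleotide supply and DNA replication. Genes of G2 and mitosis are switched on later, largely by the MuvB complex with B-Myb and FOXM1, which reads a short element named CHR, often near CCAAT boxes. Inhibitors of the p21 and INK4 families hold these kinases back. In adult sciatic nerve most Schwann cells are out of cycle, and dividing cells can also be macrophages, fibroblasts or endothelial cells, so whole-nerve RNA does not say which cells carry a cell cycle transcript.

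The promoters of these genes are given first. Whether their letters go with the behaviour of the genes across the pools, described further below, was not tested. For each gene, 200 bases upstream of the start of its most abundant protein-coding transcript were taken from GRCm39 with the GENCODE M39 annotation and searched on both strands for TTTGAA (CHR), CCAAT, and TTCCCGC or TTGGCGC (E2F). All 50 genes had such a window, as did 14198 protein-coding genes of the 16310 genes that passed a filter on low counts. CHR letters were present in 7 of 25 G2/M genes (28.0%) against 9.77% of all promoters, and a CHR together with a CCAAT box in 6 of 25 (24.0%) against 3.1%. CCAAT alone was common, in 14 of 25 G2/M genes (56.0%), in 7 of 15 G1/S genes (46.7%) and in 31.5% of all promoters. E2F letters stood in 5 of 15 G1/S genes (33.3%), in 1 of 25 G2/M genes (4.0%) and in 7.51% of all promoters. These shares did not extend evenly to other genes of the same phases: E2F letters stood in 2 of 36 other replication genes (5.56%), and CHR letters in 10 of 59 other mitosis genes (16.9%) and 0 of 36 other replication genes. The G2/M genes with CHR letters were Aurkb, Ccnb2, Cdk1, Kif20a, Kif22, Kif23 and Top2a, and the G1/S genes with E2F letters were Cdk2, E2f1, Mcm5, Mcm6 and Rrm1. A match is a run of letters, not a shown binding site, and its absence says only that these letters are not in this window.

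Below are 4 G2/M promoters that hold CHR letters and, for contrast, 1 G1/S promoter that holds E2F letters, each from 5′ to 3′ on the strand of its gene, with every match in capitals. On the complementary strand the CHR reads TTCAAA and CCAAT reads ATTGG. Ccnb2 (cyclin B2) lies on the minus strand with its window at chr9:70328875-70329074, and Aurkb (aurora kinase B) on the plus strand at chr11:68936267-68936466. Cdk1, the kinase that drives entry into mitosis, has its window on the minus strand at chr10:69188769-69188968, and Kif22, a chromosome-arm kinesin, on the minus strand at chr7:126641644-126641843. Rrm1, the large subunit of ribonucleotide reductase, lies on the plus strand with its window at chr7:102090690-102090889.
Ccnb2: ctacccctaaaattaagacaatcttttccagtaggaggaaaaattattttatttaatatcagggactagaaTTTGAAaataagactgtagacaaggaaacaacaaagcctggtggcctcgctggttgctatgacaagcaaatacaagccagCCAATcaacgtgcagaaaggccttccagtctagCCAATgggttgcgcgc
Aurkb: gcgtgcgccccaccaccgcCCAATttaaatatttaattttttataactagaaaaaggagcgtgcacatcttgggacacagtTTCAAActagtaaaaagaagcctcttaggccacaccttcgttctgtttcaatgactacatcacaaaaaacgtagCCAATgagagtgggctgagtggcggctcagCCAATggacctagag
Cdk1: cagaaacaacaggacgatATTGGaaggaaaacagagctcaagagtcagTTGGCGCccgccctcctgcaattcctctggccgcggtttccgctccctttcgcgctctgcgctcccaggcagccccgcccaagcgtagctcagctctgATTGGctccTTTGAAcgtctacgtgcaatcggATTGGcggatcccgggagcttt
Kif22: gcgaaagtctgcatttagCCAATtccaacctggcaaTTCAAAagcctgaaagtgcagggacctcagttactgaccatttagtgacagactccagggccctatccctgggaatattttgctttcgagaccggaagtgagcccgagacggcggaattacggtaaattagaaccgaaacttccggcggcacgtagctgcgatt
Rrm1: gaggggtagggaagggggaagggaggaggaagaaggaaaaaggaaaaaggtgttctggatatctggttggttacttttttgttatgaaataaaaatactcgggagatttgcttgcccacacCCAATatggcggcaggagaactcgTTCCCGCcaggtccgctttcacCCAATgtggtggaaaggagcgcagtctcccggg
In Ccnb2 the CHR ended 124 bases and in Cdk1 40 bases before the transcript start. Cdk1 was the single G2/M gene with E2F letters, which stood upstream of its CHR, whereas Rrm1 held E2F letters between a pair of CCAAT boxes and no CHR.

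Levels are given as TPM, each gene's share of the transcripts after division by length, scaled to the same total in each pool, so that genes can be compared. On this scale the machinery of G1 was abundant and that of mitosis was low. The median gene of the 16310 tested had a mean of 15.1 TPM over the 6 pools. Of the panel, 24 genes lay above it: 4 of 5 G1 entry genes, 12 of 15 G1/S genes, 4 of 25 G2/M genes, and 4 of the 5 inhibitors with Rb1. The median percentile among genes tested was 82.3 for the G1 entry genes, 65.0 for the G1/S genes, 32.5 for the G2/M genes and 65.4 for the inhibitors with Rb1. The smallest count of any member in any pool was 90 reads, for Cdkn2a in female pool 3, and the largest was 20416, for Cdkn1a in the same pool.

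**Figure D1:**
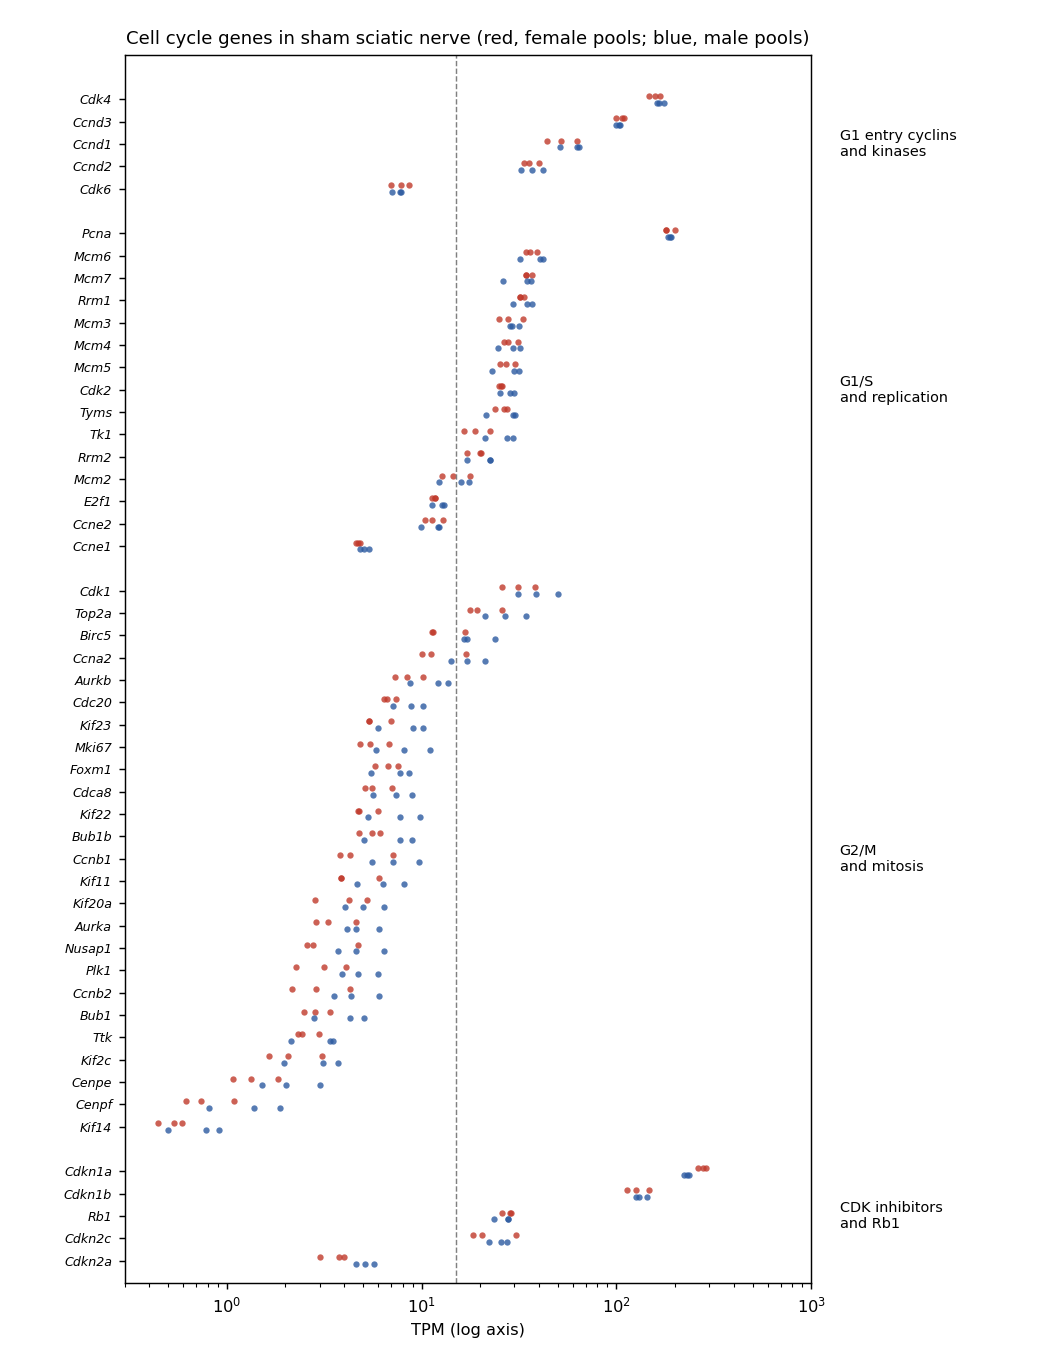
TPM of the 50 genes in each pool on a log axis, with genes in rows by phase group, red points for the 3 female and blue points for the 3 male pools, and the dashed line at the median gene of 15.1 TPM. The G1 entry genes mostly sit right of the line, and 21 of 25 G2/M genes have means left of it, from Aurkb at 10.1 down to Kif14 at 0.627 TPM.

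Among the G1 entry genes, Cdk4 measured 168, 158 and 147 TPM in female pools 1 to 3 and 162, 166 and 176 TPM in male pools 1 to 3. Ccnd3, cyclin D3, measured 110, 107 and 99.8 TPM in the female pools and 104, 103 and 100 TPM in the male pools. Ccnd1, cyclin D1, measured 62.8, 51.7 and 44.1 TPM in the female pools and 63.1, 64.4 and 51.3 TPM in the male pools. In all 3 genes the sexes overlapped, and female pool 1 was the highest of the female pools. The same held for the other 2 G1 entry genes, Ccnd2 with a mean of 36.8 TPM and Cdk6 with 7.67 TPM, so that female pool 1 led the females in 5 of 5 genes, an arrangement that 39.2% of all genes tested also had.

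The replication genes were led by Pcna, the sliding clamp of DNA polymerases, at 200, 180 and 180 TPM in the female pools and 190, 184 and 188 TPM in the male pools. Mcm6, a subunit of the replicative helicase, measured 39.3, 36.2 and 34.2 TPM in the female pools and 40.6, 42.1 and 32.1 TPM in the male pools. Its partner Mcm7 measured 37.1, 34.3 and 34.4 TPM in the female pools and 36.5, 34.7 and 26.1 TPM in the male pools. The levels of Mcm6 and Mcm7 overlapped between the sexes, and male pool 3 was the lowest pool of both. The 6 helicase subunits Mcm2 to Mcm7 had means of 15.1 to 37.4 TPM. The remaining members ran from Rrm1 at 33.2 TPM to Ccne1, cyclin E1, at 4.9 TPM, with Ccne2, Cdk2, E2f1, Rrm2, Tyms and Tk1 in between.

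The G2/M genes were led by Cdk1, at 31.1, 25.9 and 38.4 TPM in the female pools and 38.5, 50.1 and 31.4 TPM in the male pools. Top2a, the topoisomerase that untangles chromosomes, measured 19.3, 17.7 and 25.8 TPM in the female pools and 26.9, 34.5 and 21.1 TPM in the male pools. Birc5, survivin, a subunit of the chromosomal passenger complex, measured 11.3, 11.4 and 16.7 TPM in the female pools and 17.2, 23.8 and 16.5 TPM in the male pools. In each of the 3 genes male pool 2 was the highest pool and female pool 3 stood above female pools 1 and 2, and the sexes overlapped because female pool 3 lay above male pool 3. At the low end were Cenpf and Cenpe, kinetochore proteins, with means of 1.08 and 1.8 TPM, and Kif14, a kinesin of cytokinesis, at 0.627 TPM. Cdk1 is ranked first on gene sums that include much sequence of other kinds: 48.1% of its TPM was assigned to a 475-base transcript with a retained intron, Cdk1-204, and 51.0% to transcripts not annotated as protein-coding. The share of TPM on such transcripts was also high for Tyms (71.0%), Kif23 (61.3%), Cdk4 (52.4%), Foxm1 (37.9%) and Top2a (34.0%). Pseudogene copies took little, the highest being Ccnb2-ps with a mean of 0.144 TPM.

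Across the pools, the 25 G2/M genes moved together. All 25 were highest in male pool 2, as were 15.3% of all genes tested, and 21 were lowest in female pool 2, as were 8.79% of all genes. In 25 of 25 the males ran in the order pool 2, pool 1, pool 3, which 22.4% of all genes showed, and in 21 of 25 the females ran in the order pool 3, pool 1, pool 2, which 10.1% showed. Both orders held together in 21 of 25 G2/M genes and in 3.13% of all genes. These orders and pools were picked after the values were seen, and are given as a description.

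**Figure D2:**
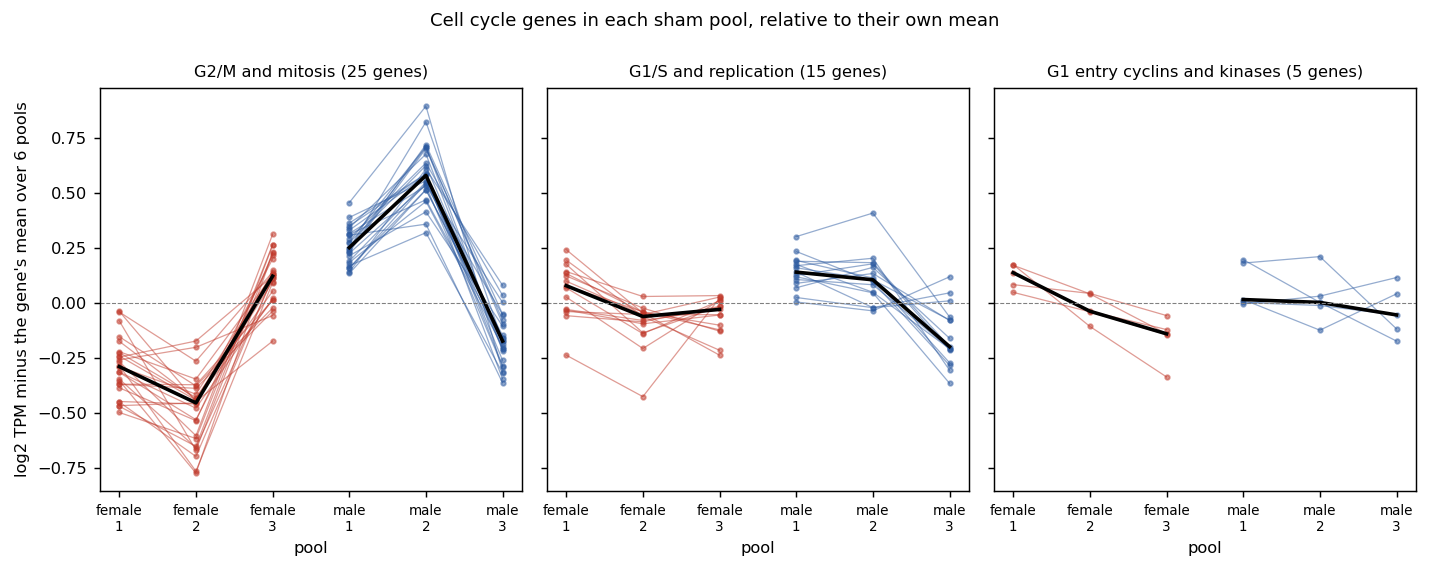
Log2 TPM of each gene minus its own mean over the 6 pools, with pools on the horizontal axis, thin lines joining the values of a gene within a sex (red female, blue male) and the black line at the median of the group. All 25 G2/M genes peak in male pool 2, while the 15 G1/S and 5 G1 entry genes stay closer to 0 and have other orders.

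The swing over the pools was wider in the G2/M genes than in the G1/S genes. The highest pool exceeded the lowest by a median of 2.09-fold over the 25 G2/M genes, with a range of 1.55 in Foxm1, the transcription factor of the mitotic programme, to 3.01 in Cenpf. The same ratio had a median of 1.31 over the 15 G1/S genes, 1.24 over the 5 G1 entry genes and 1.29 over all genes tested. Between the pools at the ends, male pool 2 over female pool 2, the median ratio was 2.09 for G2/M genes, 1.15 for G1/S genes and 0.988 for all genes. Within a sex the ratio of male pool 2 to male pool 3 had a median of 1.7 over the G2/M genes, and that of female pool 3 to female pool 2 had a median of 1.47. These pairs are the extremes of each sex, picked after the values were seen.

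Summed over the 25 G2/M genes, the female pools held 156, 139 and 205 TPM and the male pools 220, 278 and 172 TPM. Female pool 3 therefore held more than male pool 3. Summed over the 15 G1/S genes, the female pools held 543, 488 and 494 TPM and the male pools 552, 542 and 478 TPM, a narrow band in which female pool 1 sat near the highest male pool. As a balance of phases, the mean log2 level of the G2/M genes minus that of the G1/S genes was -2.52, -2.55 and -2.01 in the female pools and -2.06, -1.71 and -2.19 in the male pools. The female mean was lower by a difference of -0.37 on this log2 scale, and female pool 3 lay within the male range.

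A few G2/M genes departed from the common order. Ttk, a spindle checkpoint kinase, measured 2.31, 2.43 and 2.98 TPM in the female pools and 3.39, 3.51 and 2.13 TPM in the male pools. Its lowest pool was male pool 3, which was also the lowest for Foxm1, at 6.7, 5.74 and 7.6 TPM in the female pools and 7.75, 8.6 and 5.53 TPM in the male pools. Birc5 and Cdc20 were lowest in female pool 1, by small margins over female pool 2, and Kif14 was the single G2/M gene whose highest female pool was pool 1.

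Of the G1/S genes, 5 were highest in female pool 1, 5 in male pool 1 and 5 in male pool 2. Female pool 1 was the highest female pool in 11 of 15 (39.2% of all genes) and male pool 3 the lowest male pool in 12 of 15 (53.3% of all genes). Both orders of the G2/M genes were present in 3 of 15, namely E2f1, Rrm1 and Tk1. E2f1, the activating E2F factor, varied by no more than 1.16-fold over the pools and Rrm1 by 1.25-fold. Tk1, thymidine kinase, which supplies thymidylate by salvage, had the widest swing of the group at 1.79-fold, with 18.8, 16.5 and 22.5 TPM in the female pools and 27.3, 29.4 and 21.2 TPM in the male pools. Female pool 3 lay above male pool 3, so the sexes overlapped.

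Sex was tested on read counts with edgeR's quasi-likelihood fit and Benjamini-Hochberg adjustment over the 16310 genes tested, all 50 members among them, at a threshold of 0.1. None of the 50 members was called, against 9 of all genes (0.0552%). At an unadjusted p under 0.05 there were 9 of 50 members, of which 8 were lower in females (3.62% of all genes) and 1 higher (2.5% of all genes), together 6.12% of all genes. DESeq2 called 1 member, Cdkn1a, against 0.975% of all genes, and limma-voom called 0, against 0.0797%. At an unadjusted p under 0.05 DESeq2 had 18 of 50 members and limma-voom 7. The count at an unadjusted p under 0.05 turned on single pools, being 1 without male pool 2 or without female pool 2, 2 without male pool 1, 3 without female pool 1, 19 without male pool 3 and 24 without female pool 3. Outside the main edgeR fit, the share of all genes at this p was not counted. The counts from DESeq2, limma-voom and the left-out pools therefore have no background beside them.

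**Figure D3:**
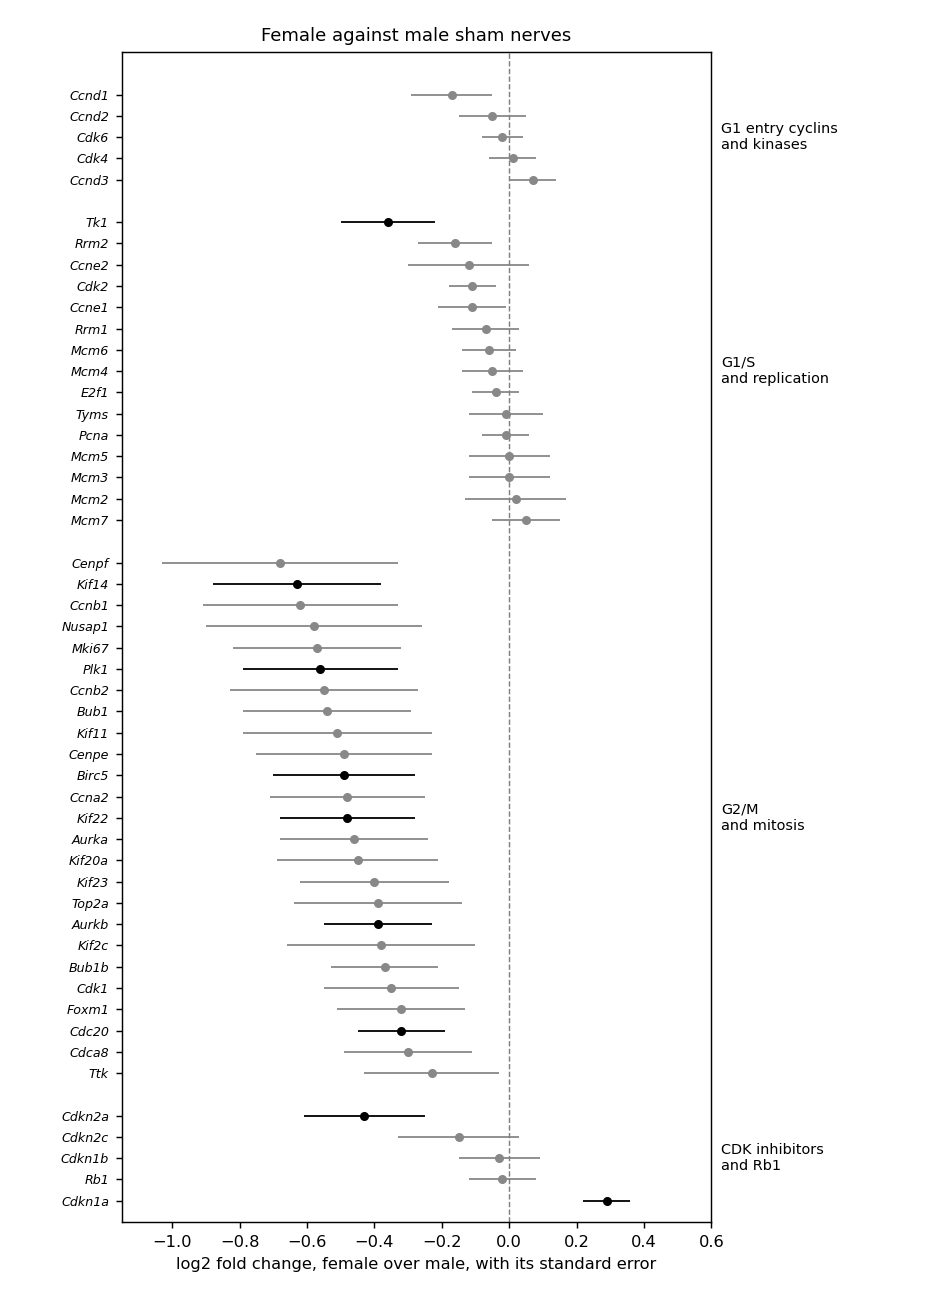
Fitted log2 fold change of each gene, female over male, as points with the standard error of the fit as bars, in 4 phase groups, with black marking an unadjusted p under 0.05. All 25 G2/M genes lie left of 0, from -0.68 to -0.23, the G1/S genes lie mostly near 0, and Cdkn1a stands right of 0 at 0.29.

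In the G2/M group the fitted log2 fold change was below 0, toward lower levels in females, in 25 of 25 genes, with a median of -0.48, or 1.4-fold higher in males. Over all genes tested, 49.5% were below 0 and the median was 0.00155. The 25 adjusted p ran from 0.79 to 0.88 in edgeR's quasi-likelihood test, so no member of the group passed it. In 0 of 25 did the sexes separate without overlap, as they did in 11.2% of all genes tested. Because the genes share a pattern over the same 6 pools, the count of 25 is not 25 separate observations of a difference between the sexes. The median was -0.27 without male pool 2, -0.32 without female pool 2 and -0.71 without female pool 3, with 25 of 25 below 0 each time. The G1/S group had 12 of 15 below 0 and a median of -0.05, and the G1 entry group 3 of 5 and a median of -0.02.

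The 6 G2/M genes at an unadjusted p under 0.05 serve different steps of division. Plk1, the polo-like kinase of mitotic entry and spindle assembly, measured 3.15, 2.26 and 4.09 TPM in the female pools and 4.7, 5.96 and 3.93 TPM in the male pools, and its log2 fold change was -0.56 (SE 0.23, adjusted p = 0.80 in edgeR's quasi-likelihood test). Aurkb, the kinase of the chromosomal passenger complex, measured 8.41, 7.3 and 10.2 TPM in the female pools and 12.2, 13.6 and 8.72 TPM in the male pools, with a log2 fold change of -0.39 (SE 0.16). Birc5, its partner, whose values are given above, had -0.49 (SE 0.21). Female pool 3 lay above male pool 3 in all 3 genes.

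Among motor proteins, Kif22 measured 4.76, 4.7 and 5.99 TPM in the female pools and 7.79, 9.82 and 5.29 TPM in the male pools, with a log2 fold change of -0.48 (SE 0.20). Kif14 measured 0.591, 0.445 and 0.538 TPM in the female pools and 0.78, 0.911 and 0.498 TPM in the male pools, with a log2 fold change of -0.63 (SE 0.25). In both genes male pool 3 lay inside the female range. Cdc20, which activates the anaphase-promoting complex, measured 6.4, 6.66 and 7.36 TPM in the female pools and 8.88, 10.2 and 7.12 TPM in the male pools, with a log2 fold change of -0.32 (SE 0.13), and male pool 3 again lay below female pool 3. The G1/S gene at this p was Tk1, with a log2 fold change of -0.36 (SE 0.14). Adjusted p of these 4 genes were 0.79 to 0.81 in edgeR's quasi-likelihood test.

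The remaining 19 G2/M genes had log2 fold changes from -0.68 in Cenpf (SE 0.35) to -0.23 in Ttk (SE 0.20), each with an unadjusted p above 0.05 in edgeR's test, though not always in DESeq2, where that of Mki67 was 0.00649. They include the proliferation marker Mki67 at -0.57 (SE 0.25), whose TPM was 5.41, 4.83 and 6.82 in females and 8.15, 11 and 5.81 in males. Mki67 was higher in male pools 1 and 2 than in any female pool, with male pool 3 below female pool 3. The mitotic cyclins Ccnb1 and Ccnb2 had -0.62 (SE 0.29) and -0.55 (SE 0.28), and Ccna2, cyclin A2, had -0.48 (SE 0.23). Spindle checkpoint genes Bub1 and Bub1b had -0.54 (SE 0.25) and -0.37 (SE 0.16).

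Among the inhibitors, Cdkn1a, which encodes p21 and lies at chr17:29309936-29319701 on the plus strand, was the most abundant gene of the whole panel, with a mean of 253 TPM that placed it at percentile 96.7 of the genes tested. It measured 261, 289 and 280 TPM in the female pools (277 ± 14.3, SD, n = 3) and 230, 222 and 237 TPM in the male pools (230 ± 7.74, SD, n = 3). All 3 female pools lay above all 3 male pools. The log2 fold change was 0.29 (SE 0.07), or 1.22-fold higher in females, with an unadjusted p of 0.00405 and an adjusted p of 0.52 in edgeR's quasi-likelihood test, so that it did not pass. DESeq2 gave the same log2 fold change of 0.29 and an adjusted p of 0.042, the lowest over the alternatives, which ranged up to 1.0.

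**Figure D4:**
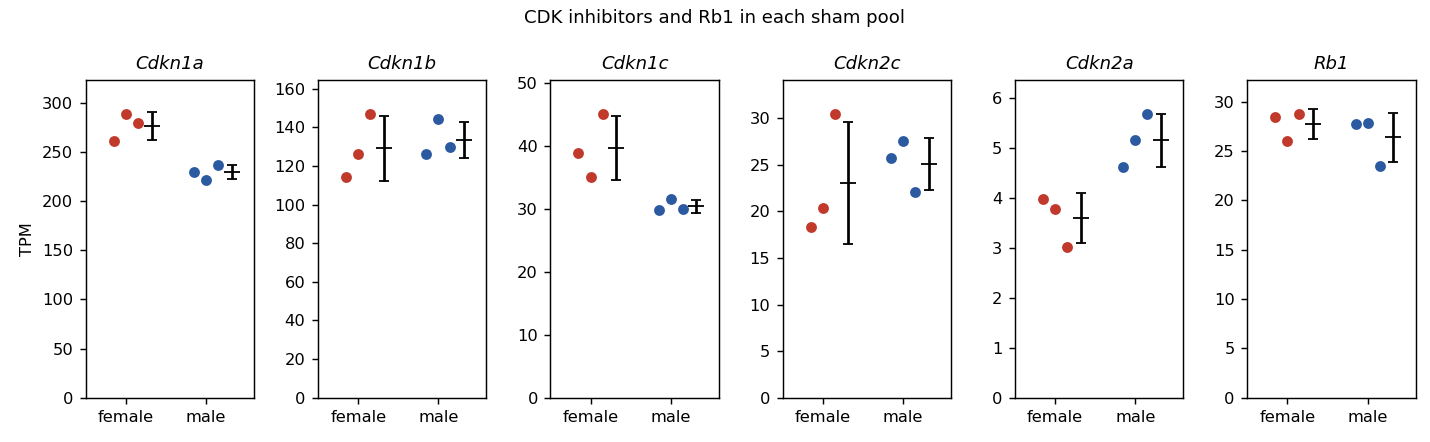
TPM of 4 CDK inhibitors of the panel, of Rb1 and of the related inhibitor gene Cdkn1c in each pool, with red points for female and blue for male pools and black bars for the mean and SD of 3 pools, on axes that start at 0. Cdkn1a and Cdkn1c are higher in all 3 female pools, Cdkn2a is higher in all 3 male pools, and the others overlap. Cdkn1c had the smallest p in edgeR's test of a list of 32 related genes, whose other inhibitors are not drawn.

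Cdkn2a, at chr4:89192708-89212890 on the minus strand, encodes the INK4 inhibitor p16 and, from another first exon, the p53 regulator ARF. It measured 3.98, 3.78 and 3.02 TPM in the female pools and 4.62, 5.15 and 5.68 TPM in the male pools. All 3 male pools lay above all 3 female pools, though on the scale of CPM, read counts divided by the scaled library total, the gap between female pool 1 at 1.86 and male pool 1 at 1.89 was small. The log2 fold change was -0.43 (SE 0.18), with an unadjusted p of 0.0465 and an adjusted p of 0.81 in edgeR's quasi-likelihood test, from 90 to 149 reads per pool. Of its TPM, 63% was assigned to Cdkn2a-201, which starts at position 89200429, and 37.0% to Cdkn2a-202, which starts 12461 bases further upstream. Cdkn1a and Cdkn2a were the 2 of 50 members whose CPM did not overlap between the sexes, against 11.2% of all genes tested (5.16% with females higher and 6.04% with males higher).

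Cdkn1b, which encodes p27, measured 114, 126 and 147 TPM in the female pools and 126, 144 and 130 TPM in the male pools, with a log2 fold change of -0.03 (SE 0.12). Cdkn2c, which encodes p18, measured 18.3, 20.4 and 30.5 TPM in the female pools and 25.7, 27.6 and 22.1 TPM in the male pools, with a log2 fold change of -0.15 (SE 0.18). Rb1, whose product holds E2F factors inactive, measured 28.5, 26.0 and 28.8 TPM in the female pools and 27.8, 27.9 and 23.5 TPM in the male pools, with a log2 fold change of -0.02 (SE 0.10). The sexes overlapped in these 3 genes, and female pool 3 was the highest pool of each. The sign of the fitted value for Cdkn1b and Rb1 turned with the pool left out. That of Cdkn2c moved to -0.37 without female pool 3 (unadjusted p = 0.0158 in edgeR's quasi-likelihood test), -0.06 without female pool 2, -0.05 without male pool 2 and -0.04 without female pool 1.

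Further genes of the pathway were counted in the same fit, from lists of 147 genes that all passed the filter. In edgeR's quasi-likelihood test 0 of 147 were called, against 0.0552% of all genes, with 12 at an unadjusted p under 0.05, against 6.12% of all genes. The 12 became 2 without female pool 1, female pool 2 or male pool 2, 6 without male pool 1, 40 without female pool 3 and 58 without male pool 3. DESeq2 called 1 of 147, Cdkn1c, against 0.975% of all genes, with 20 at an unadjusted p under 0.05. For DESeq2 and for the left-out pools, the share of all genes at this p was not counted. Of 59 other mitosis genes, 57 had a log2 fold change below 0 with a median of -0.33, and 52 were highest in male pool 2. The exceptions in direction were Stmn1 and Tubb4b, a tubulin-binding protein and a tubulin that nondividing cells also use, which were also the most abundant of the list at 393 and 176 TPM and had a log2 fold change of 0.04 each. Smallest in p were Espl1, the separase that cuts cohesin, at -0.33 (SE 0.12), and Nuf2, of the outer kinetochore, at -0.43 (SE 0.16). Nuf2 measured 4.75, 4.65 and 5.94 TPM in the female pools and 6.16, 7.97 and 6.17 TPM in the male pools. Espl1 varied in another order, at 4.55, 6.38 and 3.9 TPM in the female pools and 9.57, 7.8 and 3.44 TPM in the male pools. The SD of the male pools, 3.16 TPM on a mean of 6.93, was wide beside the SE of 0.12 fitted on read counts. TPM and read counts thus did not give the same spread for this gene, and the cause was not tested.

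Of 36 other replication genes, 30 had a log2 fold change below 0, with a median of -0.09, and 17 were highest in male pool 2. The most abundant were Slbp, which binds histone mRNA, at 39.2 TPM and Dut, a dUTPase, at 33.1 TPM. Smallest in p was Dbf4, the activating subunit of the CDC7 kinase, at -0.30 (SE 0.11). The median of the replication list thus lay close to that of the G1/S members (-0.05) and far from that of the G2/M members (-0.48).

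Of 32 other inhibitors, pocket proteins, E2F factors and regulators, 21 had a log2 fold change below 0, with a median of -0.03. Cdkn1c, which encodes p57, the third member of the family of p21 and p27, measured 39, 35.1 and 45.2 TPM in the female pools and 29.8, 31.7 and 30.0 TPM in the male pools. All 3 female pools were higher than all 3 male pools. On CPM this held for 2 of the 32 genes, against 5.16% of all genes tested. Its log2 fold change was 0.47 (SE 0.09), or 1.38-fold higher in females, with an adjusted p of 0.41 in edgeR's quasi-likelihood test and 0.0056 in DESeq2, and a range of 0.0056 to 0.81 over the alternatives. E2f8, a repressing E2F factor, had -0.35 (SE 0.14), and the abundant Rbbp4 and Tfdp1 had -0.03 (SE 0.06) and 0.05 (SE 0.07).

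Cdkn1a is a target of p53, and 20 further p53 target genes were counted for comparison. Of these, 5 had a log2 fold change below 0, with a median of 0.05, 0 had an unadjusted p under 0.05 and 0 were highest in male pool 2. Phlda3 was at 0.26 (SE 0.14), Sesn1 at 0.15 (SE 0.08) and Bax at 0.08 (SE 0.09). Overlap between the sexes was seen in all 20.

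Markers of other cells were summed in each pool beside these values. The 8 macrophage markers summed to 1275 to 1336 TPM in females and 1480 to 1660 TPM in males, with male pool 2 the highest and female pool 2 the lowest. Male pool 3, the lowest male pool for the G2/M genes, was second in summed macrophage markers at 1549 TPM. Cd68, the most abundant of them, was highest in that pool, at 383, 355 and 499 TPM in male pools 1 to 3. Among the males, Adgre1, Csf1r, Mrc1, Lyve1, Cx3cr1 and C1qa were lowest in male pool 3, and Ccr2 in male pool 1. Both pool orders of the G2/M genes were present in 2 of 8 macrophage markers. Of the macrophage markers 5 of 8 were higher in TPM in every male pool than in any female pool, as were 6.04% of all genes tested on CPM. In edgeR's test 5 of 8 were at an unadjusted p under 0.05, against 6.12% of all genes, and 0 were called. Adgre1, Mrc1 and Lyve1 overlapped between the sexes, with Mrc1 and Lyve1 lowest in male pool 3. The 8 fibroblast markers summed to 4790 to 5335 TPM in females and 4851 to 5954 TPM in males, again with male pool 2 the highest, and 3 of 8 had both of these pool orders. Col1a1 and Col1a2, 2 of the 8, were higher in TPM in every male pool than in any female pool. In edgeR's test 2 of 8 fibroblast markers were at an unadjusted p under 0.05, against 6.12% of all genes, and 0 were called. Myeloid progenitor markers of bone marrow were low, with 2 of 6 past the filter. Their sum was 10.4 to 12.2 TPM over the female pools, against 13 to 15.5 TPM over the male pools. Prtn3 made up most of each sum, with female pools at 6.25 to 7.62 TPM and male pools at 8.92 to 9.83 TPM. In TPM, Prtn3 and Mpo were higher in every male pool than in any female pool, and Elane was lower. Without overlap on CPM were 11.2% of all genes tested. Mpo, at 0.0322 to 0.386 TPM, and Elane, at 0.0779 to 0.332 TPM, did not pass the filter. Of the 2 that passed, 1 was at an unadjusted p under 0.05 in edgeR's test, against 6.12% of all genes. Cebpe, Ctsg and Ms4a3 overlapped between the sexes. The part of any of these cells in the G2/M values was not tested.

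**Figure D5:**
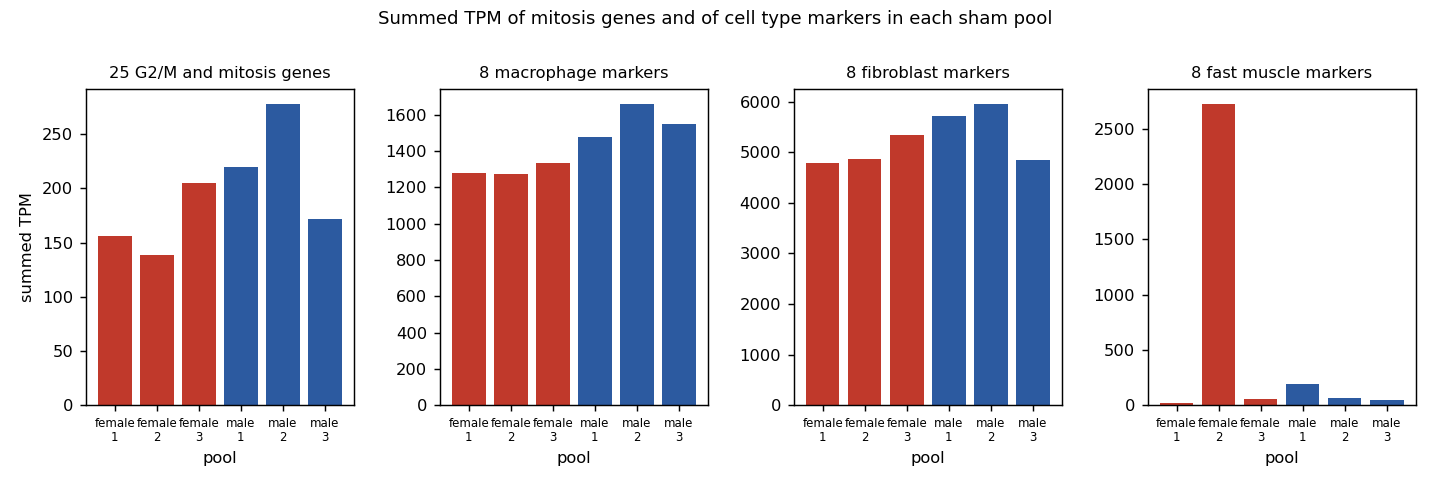
Summed TPM in each pool of the 25 G2/M genes and of markers of macrophages, fibroblasts and fast muscle, as bars from 0, red for female and blue for male pools. The G2/M genes, macrophage markers and fibroblast markers are all highest in male pool 2, and fast muscle markers stand out in female pool 2 at 2723 TPM. The marker lists drawn are a selection. Of those not drawn, myeloid progenitor and keratinocyte markers also peak in male pool 2. Myelinating Schwann cell markers peak in male pool 3, endothelial and lymphocyte markers in male pool 1. Nonmyelinating Schwann cell, neutrophil and satellite cell markers peak in female pool 2, and adipocyte and erythroid markers in female pool 3.

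The 8 markers of myelinating Schwann cells, the defining cells of the labelled tissue, summed to 33783 to 43062 TPM. Female pool 2, the lowest pool for most G2/M genes, held 2723 TPM of fast muscle markers against 15.2 to 189 TPM in the other pools, and the most neutrophil marker RNA at 6083 TPM against 3459 to 4874 TPM. Its satellite cell markers summed to 1.29 TPM. Adipocyte markers summed to 569 to 1110 TPM in females and 501 to 547 TPM in males. In edgeR's test 2 of 6 adipocyte markers were at an unadjusted p under 0.05, against 6.12% of all genes, and 0 were called. Nonmyelinating Schwann cell markers (159 to 176 TPM), endothelial markers (249 to 338 TPM), lymphocyte markers (9.84 to 16 TPM), erythroid markers (1.75 to 4.89 TPM) and keratinocyte markers (4.54 to 6.34 TPM) overlapped between the sexes.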

How the data were processed

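Stranded libraries of polyadenylated RNA were read from both ends by the authors, who removed adapters with Trimmomatic 0.39 and estimated transcript abundance with Salmon against GENCODE mouse transcripts. The submitters' processing notes give Salmon 1.5.2 and MultiQC 1.9, while the paper names another Salmon version, and the paper and the files name different GENCODE releases. The values deposited by the authors are, per transcript, an estimated count that need not be whole and a TPM, scaled to 1000000 per sample and not corrected for composition.

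Here both were summed by gene, and estimated counts were rounded. Library totals were 55949876 to 78473057. Of 31616 genes with a read, 16310 reached a CPM of 0.5 in 3 or more pools and were tested. Females were compared with males in edgeR 4.0.16 with a robust quasi-likelihood fit on TMM factors and Benjamini-Hochberg adjustment, at the study's threshold of 0.1. The common biological coefficient of variation was 0.154. Nothing in the labels ties same-numbered pools of the sexes together, so a replicate block was an alternative only. DESeq2 1.42.0, limma 3.58.1 and other settings were alternatives. In simulated female against male data of 16161 genes the edgeR step called 70% of genes changed 1.5-fold and 89.3% of those changed 2-fold. These shares hold for that simulation. The share that would be called among the 50 members was not tested. Levels are mean TPM, and logs of TPM have a pseudocount of 0.1. P-values set the difference between the sexes against the spread between pools of 2 mice, with each gene's spread estimated in part from all genes tested.

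The 50 genes, phase groups and lists were chosen with earlier results of these data known. Named genes are the 3 most abundant of each group, members with an unadjusted p under 0.05 or without overlap, all inhibitors with Rb1, and exceptions to a count. Of each pathway list, the 2 most abundant and the 2 smallest in p are named, except 1 gene that is not reported here. Mki67, the mitotic cyclins, Bub1, Bub1b, Cenpe and Cenpf were named after their values were seen. Coordinates and promoters are from GENCODE M39 on GRCm39, and marker lists cover Schwann, fibroblast, endothelial, immune, erythroid, muscle, fat and skin cells.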

Additional observations from a re-analysis of the deposited data

How the results depend on the processing

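The count of members called was 0 under every alternative but DESeq2, which called 1 (Cdkn1a, log2 fold change 0.29), and DESeq2 called 1 of the other pathway genes (Cdkn1c). Leaving out each pool in turn, both counts ranged from 0 to 0, the median log2 fold change from -0.71 to -0.27 for G2/M genes and from -0.11 to -0.00715 for G1/S genes, the female minus male difference in phase balance from -0.54 to -0.23, the members above the median gene from 21 to 24, and the G2/M genes highest in a shared pool from 22 to 25, the 22 being in male pool 1 once male pool 2 was left out. Set against all 31616 genes with at least 1 read in place of the 16310 tested, 49 members lay above the median gene, since that set holds many genes near 0. The fitted value of Cdkn1b turned to 0.05 without female pool 1, 0.02 without female pool 2 and 0.05 without male pool 2. Over the left-out pools it ranged from -0.16 to 0.05. That of Rb1 turned to 0.07 with effective length offsets, 0.04 without female pool 2, 0.00201 without male pool 1 and 0.04 without male pool 2, and over the left-out pools ranged from -0.09 to 0.04. The cause was not tested. Same-numbered pools of the sexes did not deviate together (r = -0.18, -0.128 and -0.097 over genes), and no male pool correlated best with its own number. With a replicate block, 0 members were called, 1 was at an unadjusted p under 0.05 (9 without the block), as were 3 of the 147 pathway genes (12 without it), and the G2/M median was -0.48. The share of all genes at this p was not counted with the block. Over the settings of the phase balance other than left-out pools, the difference was -0.41 to -0.3. The fitted values of the other 10 members so tested (Tk1, Aurkb, Plk1, Birc5, Cdc20, Kif14, Kif22, Cdkn1a, Cdkn2a and Cdkn2c) kept their direction under each alternative, and apart from Cdkn1a in DESeq2 none passed the threshold. Fold changes of other genes, and the medians of the other lists, were not compared across settings. With 3 pools per sex, an exact permutation test of a single value could not go below p = 0.1.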
